A study of Arabidopsis thaliana with 40 samples.

Results

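The regulators described here are 9 *Arabidopsis thaliana* genes that act with the transcription factor SHORT-ROOT (SHR) in patterning the root. They were chosen by locus, with earlier results of these data known. They are the rows of the expression table for SHR, SCR, SCL3, SCL23, JKD, MGP, NUC, BALDIBIS and SIEL. These are 9 of the 32678 *Arabidopsis* loci in the table. Single cells were profiled by CEL-Seq, which tags the 3′ ends of polyadenylated transcripts with a barcode for each cell before the material is pooled and amplified. The cells were sorted by GFP from digested roots of *WOX5:GFP* plants in the Col-0 background at 5 days after stratification (DAS), where the *WOX5* promoter marks the quiescent center (QC), the rarely dividing cells at the center of the root stem cell niche. All 40 samples share this genotype, age and label, so there was 1 group with no control, and a profile was found for 39 of them.

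SHR and SCARECROW (SCR) are transcription factors of the GRAS family. SHR is transcribed in the stele, and its protein moves outward into the adjacent layer and into the QC, where it activates SCR and binds SCR protein in the nucleus. SCR is transcribed in the QC, the endodermis and the initial cells of the ground tissue, and roots that lack it do not keep a working QC. The BIRD proteins, among them JACKDAW (JKD), MAGPIE (MGP), NUTCRACKER (NUC) and BALDIBIS, are zinc finger proteins of the INDETERMINATE DOMAIN (IDD) family that bind SHR and SCR and help to confine SHR movement.

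On the RefSeq TAIR10.1 annotation, the GRAS genes are SHR (AT4G37650) at chr4:17691687-17693859 and SCR (AT3G54220) at chr3:20069987-20072878, both on the plus strand. SCL3 (AT1G50420) is at chr1:18677694-18680300 on the minus strand and SCL23 (AT5G41920) at chr5:16779643-16781424 on the plus strand. The BIRD genes are JKD (AT5G03150) at chr5:745421-749028 and NUC (AT5G44160) at chr5:17772856-17775749 on the plus strand, and MGP (AT1G03840) at chr1:967470-970334 and BALDIBIS (AT3G45260) at chr3:16596358-16598811 on the minus strand. SIEL (AT3G08947), an armadillo-repeat protein that binds SHR and promotes its movement between cells, is at chr3:2723153-2726951 on the plus strand. None of the 9 genes overlapped another annotated gene on either strand.

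Since related genes can share reads, coding sequences were compared within the family. Among the BIRD genes described here MGP and NUC were the most alike, with 78.8% identity over 1355 aligned coding bases. JKD and BALDIBIS followed with 70.5%. The stretch shown is the last 90 coding bases of the JKD exon in which its longest run shared with BALDIBIS starts. Most of that run lies beyond the stretch, in the next exon. The best match in each other BIRD gene described here is shown beside it. Each stretch is given 5′ to 3′ on the coding strand, and capitals mark bases that differ from JKD.
JKD, chr5:746720-746809: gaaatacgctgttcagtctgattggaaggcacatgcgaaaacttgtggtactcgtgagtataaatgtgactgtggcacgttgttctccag
MGP, chr1:969315-969404: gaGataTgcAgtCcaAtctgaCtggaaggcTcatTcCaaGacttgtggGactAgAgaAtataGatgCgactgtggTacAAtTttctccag
NUC, chr5:17773965-17774054: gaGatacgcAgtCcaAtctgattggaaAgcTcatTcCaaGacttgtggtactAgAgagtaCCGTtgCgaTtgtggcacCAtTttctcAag
BALDIBIS, chr3:16597824-16597913: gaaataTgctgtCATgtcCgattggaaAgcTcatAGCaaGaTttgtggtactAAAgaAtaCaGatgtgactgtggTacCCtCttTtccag
In this window MGP differed from JKD at 20 bases, NUC at 21 and BALDIBIS at 23. Over the whole transcripts, the longest run that JKD and BALDIBIS shared was 32 bases, and the longest that MGP and NUC shared was 24. Stretches of 30 bases (30-mers) of each transcript were searched in the nuclear genome and in the spliced transcripts of all other loci, so that matches across exon junctions were seen too. Of the 2261 30-mers of JKD, 3 were found elsewhere, all in the BALDIBIS transcript, and the same 3 made up those of BALDIBIS. None of those of MGP, NUC, SHR, SCR or SCL3 was found elsewhere, while 2 of the 1753 30-mers of SCL23 matched an intergenic position.

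SIEL was the exception. Of its 3141 30-mers, 42.2% were also found in the neighbouring gene AT3G08943 at chr3:2718880-2722624, which lies on the opposite strand and is 96.2% identical over 1966 aligned coding bases. The longest shared run of the 2 transcripts was 469 bases. In the last 300 bases of the transcript, where CEL-Seq primes, 17 of the 271 30-mers of SIEL were found elsewhere. The coding stretch shown is the most 3′ one of 120 bases that the neighbour matched at 90% or more, with capitals at the bases that differ.
SIEL, chr3:2726597-2726716: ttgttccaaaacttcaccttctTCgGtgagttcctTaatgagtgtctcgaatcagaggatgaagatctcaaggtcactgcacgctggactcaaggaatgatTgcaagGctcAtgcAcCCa
AT3G08943, chr3:2719198-2719317: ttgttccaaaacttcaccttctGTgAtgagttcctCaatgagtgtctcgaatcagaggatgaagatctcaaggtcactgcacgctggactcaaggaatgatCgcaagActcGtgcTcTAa
The stretches differed at 10 of 120 bases. How reads shared by these genes were counted is not stated for the CEL-Seq libraries, so the value of SIEL is uncertain in a way that those of the other 8 genes are not.

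The profiles were not independent. The deposited values are log2 of depth-normalized read counts plus 1, and whole counts were recovered from them. With the 39 profiles sorted by depth, no locus lost counts at any of the 38 steps to a deeper profile (0 values fell), so each profile contains the counts of all shallower ones. The total over *Arabidopsis* loci ranged from 57655 in QC cell 4 to 7431708 in QC cell 22, with 2096738 in QC cell 13 at the median depth. The profiles are therefore counted as 1 sample, no test between cells was run, and levels are given as CPM, the count divided by the total of the profile and scaled to 1000000, in the deepest profile, QC cell 22. Intervals are exact Clopper-Pearson intervals at the 95% level and cover counting error only. They treat counts as independent draws. Some genes gained several counts in 1 step where far fewer were expected, as given below, so the intervals may be too narrow.

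The label QC was checked against marker genes. The QC markers WOX5 and AGL42 were above 0 in the deepest profile, with 10.6 and 2.96 CPM, and their summed level ranged from 0 to 18.8 CPM over profiles. Of 8 endodermis markers 3 were above 0, and their summed level ranged from 128 to 189 CPM and in the deepest profile 130 of its 133 CPM came from MYB36. All 5 stele markers were above 0, with a summed level from 0 to 69.8 CPM over profiles. In the deepest profile WOL had 33.5 CPM, APL 20.5, SUC2 4.04, PHB 2.96 and VND7 1.21. Their sum there was 62.2 CPM, against 13.6 CPM for the QC markers. Both the stele and the endodermis sums were thus above the QC sum, so the markers did not single out QC. The lists differ in size. Of the other marker lists, 1 of 2 cortex markers, 1 of 3 epidermis markers and 0 of 2 root cap markers were above 0. The share above 0 over all loci was 51.3% in the deepest profile. The GFP row was listed at 0. The part of other cell types in the levels given here was not tested.

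All 9 regulators were above 0 in the deepest profile, where 51.3% of all loci were. A level of at least 10 CPM was reached by SCR, SCL3 and JKD, 3 of the 9, against 27.8% of all loci. At least 10 counts were recovered for 7 of the 9, against 47.3%, and at least 1 CPM for 8 of the 9, against 48.5%. The genes were thus all listed in this profile, which holds the counts of the shallower ones, so presence in the same cell is not shown. They spanned a wide range, from 212 counts for SCR to 5 counts for MGP. The median over the 9 genes was 6.06 CPM. The median over all detected loci was 12.1 CPM.

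**Figure D1:**
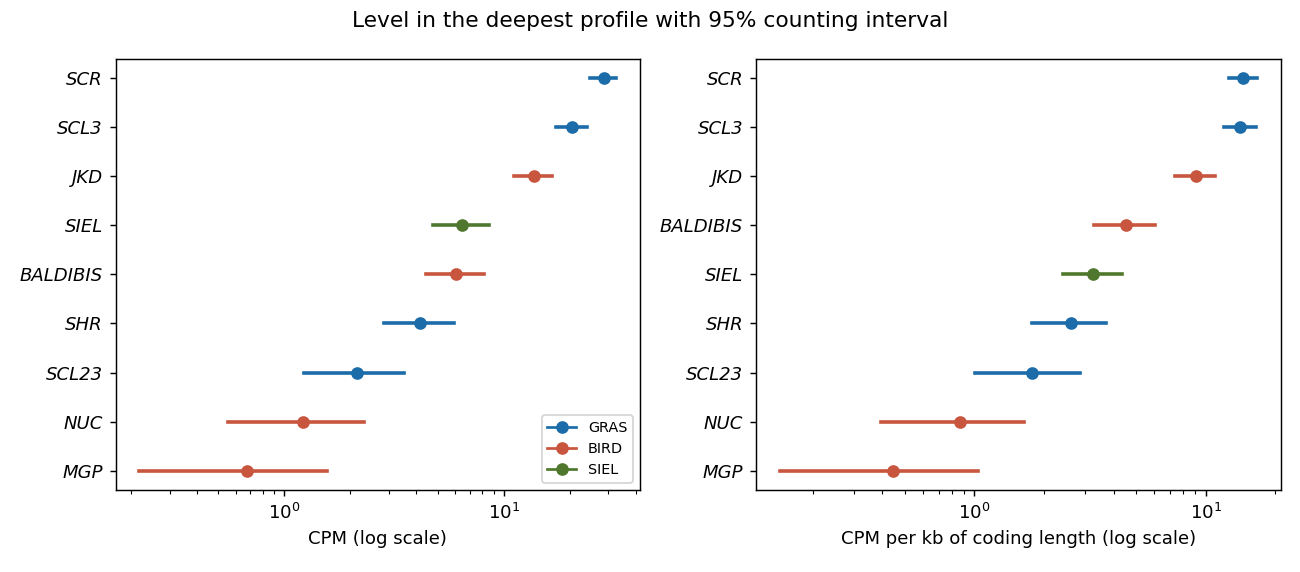
Level of the 9 regulators in the deepest profile, as CPM (left) and as CPM per kb of coding length (right), both on log axes. Points are values and lines are 95% counting intervals. SCR and SCL3 lie highest and MGP lowest on both scales.

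SCR had the highest level of the 9. Its CPM over the 39 profiles had a lowest value of 0, a median of 28.4 and a highest of 29.8, and it was at 0 only in the 2 shallowest. In the deepest profile it had 212 counts, or 28.5 CPM (95% interval 24.8 to 32.6), above 69.1% of detected loci. Its count followed depth closely, as seen from the point at which it was first listed, with 4 counts at a depth of 164018.

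SHR was far lower. Its CPM over profiles ranged from 0 to 8.67 with a median of 5.04, and it was at 0 in 9 profiles. In the deepest profile it had 31 counts, or 4.17 CPM (2.83 to 5.92), above 26.7% of detected loci. The SCR count was 6.84 times the SHR count (95% interval 4.68 to 10.3, exact conditional binomial), and 5.56 times per coding length. In the profile of median depth, with 59 and 13 counts, the ratio was 4.54 (2.46 to 9.02). SCR was thus higher than SHR beyond the counting interval at both depths, while the size of the ratio was less certain. The median-depth counts are part of the deepest ones, so they are not a second, independent comparison. Because the profiles share their counts, fewer cells with SHR transcript and less SHR transcript per cell cannot be told apart. In all, 11 pairs of genes were compared by such ratios, with no adjustment of the intervals.

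SCL3, a direct target of SHR and SCR that acts in gibberellin signalling in the endodermis, came next to SCR. Its CPM over profiles had a lowest value of 0, in the shallowest profile only, a median of 23.7 and a highest of 36.6. In the deepest profile it had 152 counts, or 20.5 CPM (17.3 to 24.0). Per kb of coding length SCR had 14.5 CPM (12.6 to 16.6) and SCL3 14.1 CPM (12.0 to 16.5), so their intervals overlapped. The ratio of SCR to SCL3 was 1.03 (0.832 to 1.28) on that scale and 1.39 (1.13 to 1.73) on counts.

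SCL23 is the GRAS protein most like SCR and acts together with it in the endodermis. It was low, with CPM over profiles from 0 to 3.43 and a median of 2.53, and it was at 0 in 13 profiles. In the deepest profile it had 16 counts, or 2.15 CPM (1.23 to 3.50). The SCR count was 13.2 times that of SCL23 (7.97 to 23.6). At the median depth the counts were 59 and 7, with a ratio of 8.43 (3.85 to 21.9).

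JKD was the highest of the BIRD genes among the regulators described here. JKD keeps SHR in the nucleus and limits how far it moves. Its CPM over profiles had a lowest value of 0, in the shallowest profile only, a median of 13.5 and a highest of 18.6. In the deepest profile it had 102 counts, or 13.7 CPM (11.2 to 16.7), near the middle of the detected loci, as it exceeded 52.8% of them.

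BALDIBIS, which acts redundantly with JKD, had 45 counts or 6.06 CPM (4.42 to 8.10) in the deepest profile. Over profiles its CPM ranged from 0 to 8.89 with a median of 4.91, and it was at 0 in 8 profiles. The JKD count was 2.27 times that of BALDIBIS (1.58 to 3.29), and 2.30 times at the median depth (1.05 to 5.41).

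NUC and MGP, which are targets of SHR and SCR, were the lowest of the 9. NUC had 9 counts in the deepest profile, or 1.21 CPM (0.554 to 2.30), and its CPM over profiles ranged from 0 to 2.67 with a median of 1.18. MGP had 5 counts, or 0.673 CPM (0.218 to 1.57), and its CPM ranged from 0 to 1.22 with a median of 0. The JKD count was 11.3 times that of NUC (5.74 to 25.5) and 20.4 times that of MGP (8.46 to 64.2). At the median depth JKD had 23 counts, NUC 4 and MGP 0, and the ratio of JKD to NUC was 5.75 (1.96 to 22.9). NUC and MGP could not be told apart, with a ratio of 1.80 (0.542 to 6.84). Of the 4 BIRD genes described here, the 2 of closest coding sequence were also the 2 of lowest level.

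SIEL had 48 counts, or 6.46 CPM (4.76 to 8.56), and over profiles it ranged from 0 to 8.14 CPM with a median of 6.20. Its neighbour AT3G08943 had 122 counts, or 16.4 CPM (13.6 to 19.6), which was 2.54 times the SIEL count (1.81 to 3.63). Summed, since reads of the pair may be split between them, the genes had 170 counts, or 22.9 CPM, of which SIEL held 28.2%. SIEL was at 0 in 11 profiles and AT3G08943 in 2. AT3G08943 also overlaps AT3G08940 on the opposite strand. In the last 300 bases of the AT3G08943 transcript, 15 of its 30-mers were found elsewhere. Any effect on its count, and so on the ratio and the sum, was not tested.

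Per kb of coding length, the order from high to low was SCR, SCL3, JKD, BALDIBIS, SIEL, SHR, SCL23, NUC and MGP. The intervals of SCL3 and JKD did not overlap, nor did those of JKD at 9.08 CPM per kb (7.40 to 11.0) and BALDIBIS at 4.52 (3.29 to 6.04). The other 6 of the 8 neighbouring pairs overlapped. The lower part of the order, SIEL at 3.27, SHR at 2.61, SCL23 at 1.77, NUC at 0.864 and MGP at 0.442 CPM per kb, was therefore not resolved step by step. On CPM with no division by length, which is the closer scale because CEL-Seq tags 3′ ends, 3 neighbouring pairs were separated. SCR was then separated from SCL3, and SIEL stood above BALDIBIS with overlapping intervals.

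**Figure D2:**
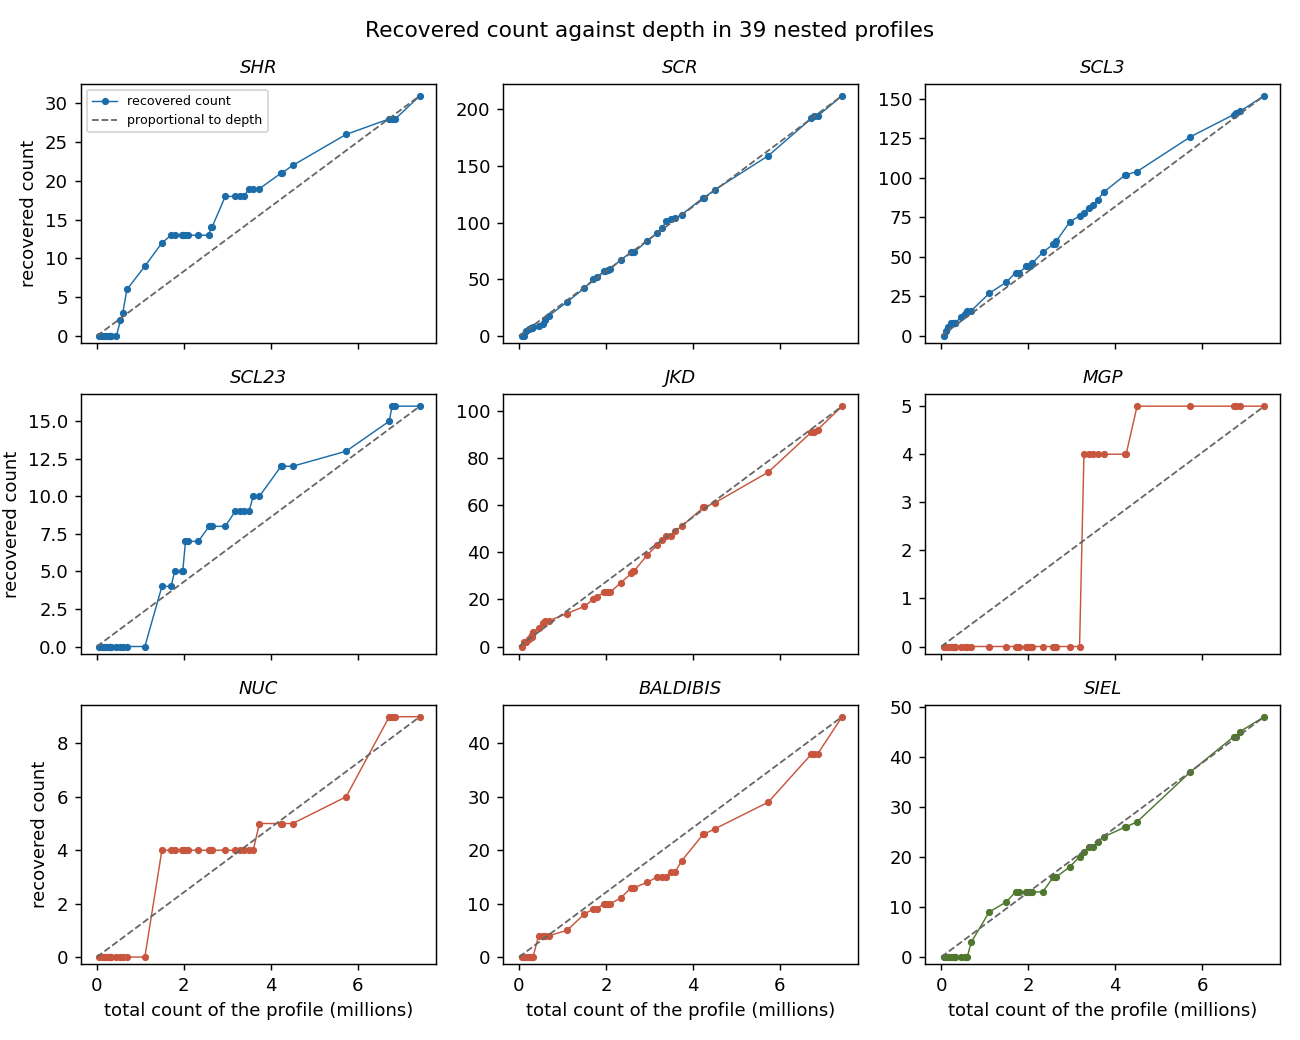
Recovered count of each regulator (y axis) against the total count of the profile in units of 1000000 counts (x axis) for the 39 nested profiles. The dashed line joins 0 to the count in the deepest profile. SCR and JKD run close to the line, while MGP steps from 0 to 4 counts between neighbouring profiles.

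Detection against depth showed how each gene entered the profiles. None of the 9 was above 0 in the shallowest profile, where 15.3% of all loci were. Of the 9, 8 were above 0 at the median depth, against 46.1% of all loci, and 5 were above 0 in at least 30 profiles, against 36.3%. SCL3 and JKD were above 0 in 38 profiles, SCR in 37, BALDIBIS in 31, SHR in 30, SIEL in 28, SCL23 and NUC in 26, and MGP in 13. This order was close to the order of their counts in the deepest profile.

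The smallest count above 0 in any profile was 2. The observed number of profiles was therefore set beside the number in which read sampling from the deepest profile would give at least 2 counts. SHR was above 0 in 30 profiles and 31.6 were expected. For SCR, with 37 and 38.3, and for JKD, with 38 and 36.8, the numbers were also close. For SIEL they were 28 and 33.8, and for MGP 13 and 18.2. NUC was above 0 in 26 profiles and 24.3 were expected. The numbers were 38 and 37.7 for SCL3, 26 and 28.3 for SCL23, and 31 and 33.5 for BALDIBIS. Since every profile is part of the deepest one, close numbers are no independent check of a level.

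The genes did not all enter with the fewest counts possible. SHR and JKD were first listed with 2 counts and SCL3 and SIEL with 3. SCR, SCL23, MGP, NUC and BALDIBIS were first listed with 4. The step in which MGP went from 0 to 4 counts, between depths of 3182148 and 3282952, added 100804 counts, from which 0.0678 MGP counts would be expected at the rate of the deepest profile, and 2.14 would be expected in the profile before it. SCL23 and NUC both went from 0 to 4 counts in the same step, from a depth of 1105492 to 1497147, with 0.843 and 0.474 expected there. In this step 697 loci were first listed. SIEL was still at 0 at a depth of 598893, where 3.87 counts would be expected. Over all 11783 loci that were first listed after the shallowest profile the median first count was 3, and 75.3% had 2 to 4. The cause was not tested. A listed 0 therefore sets no upper limit on the level of a gene in a shallow profile.

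After they were listed, some genes stood still over long stretches of depth. NUC stayed at 4 counts over 16 steps, from a depth of 1497147 to 3597049, in which 2.54 further counts would be expected. SHR stayed at 13 counts over 7 steps with 3.64 expected. SCR gained counts in 30 of the 38 steps, SCL3 and JKD in 28, SIEL in 17, BALDIBIS in 16, SHR in 14 and SCL23 in 10. NUC gained in 4 and MGP in 2.

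**Figure D3:**
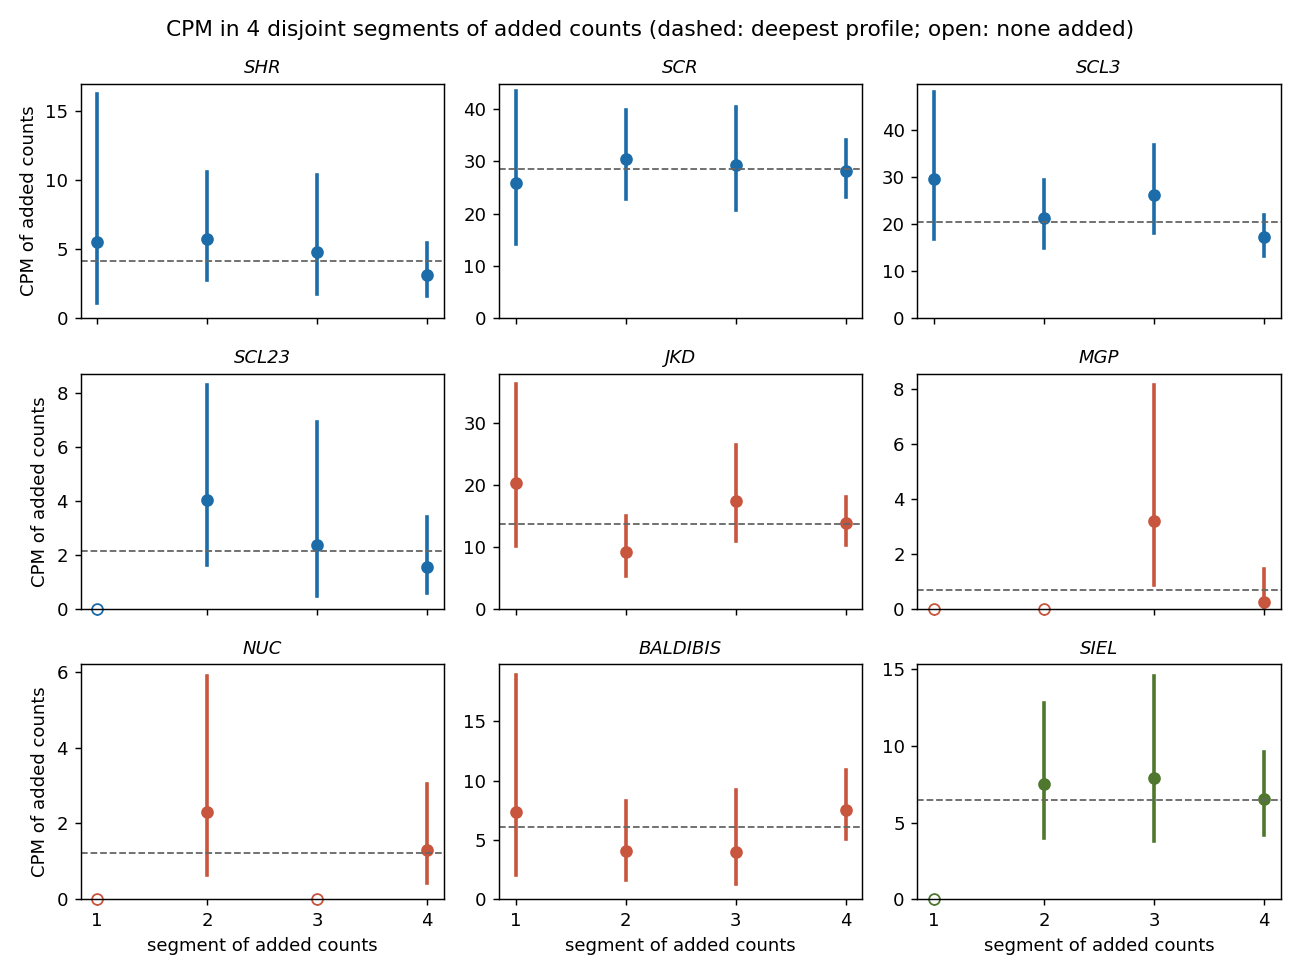
CPM of the counts added in 4 disjoint segments of the depth series (x axis, segment 1 shallowest) for each regulator, with 95% counting intervals. The dashed line is the level in the deepest profile and open points mark segments with no added count. SCR lies between 25.9 and 30.5 CPM in all 4 segments.

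Because successive differences share no counts, the depth series was cut into 4 disjoint segments of steps, with 541238, 1736948, 1261208 and 3834659 added counts. SCR was steady, at 25.9, 30.5, 29.3 and 28.2 CPM of added counts. SHR had 5.54, 5.76, 4.76 and 3.13 CPM, from 3, 10, 6 and 12 counts. JKD had 20.3, 9.21, 17.4 and 13.8 CPM. SCL3 had 29.6, 21.3, 26.2 and 17.2 CPM, and BALDIBIS 7.39, 4.03, 3.96 and 7.56 CPM. For these 5 genes, which gained counts in every segment, the intervals of the lowest and highest segment overlapped in 5 of 5 cases. Among 6974 loci of 5 to 212 counts that gained in every segment they failed to overlap in 2.12%. The value of SCR was above that of each other regulator in every segment, except that SCL3 was above it in the first.

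SCR was also compared with all loci of at least 100 counts by the CPM of added counts over the 38 steps. The 3 loci most like it among 7998 were ATAN11 (AT1G12910), AT1G48900 and IMD3 (AT1G31180), with Pearson's r of 0.786, 0.755 and 0.724. These are the highest of many values, the points share their depth and the counts per step are small, so they are a description with no test.

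**Figure D4:**
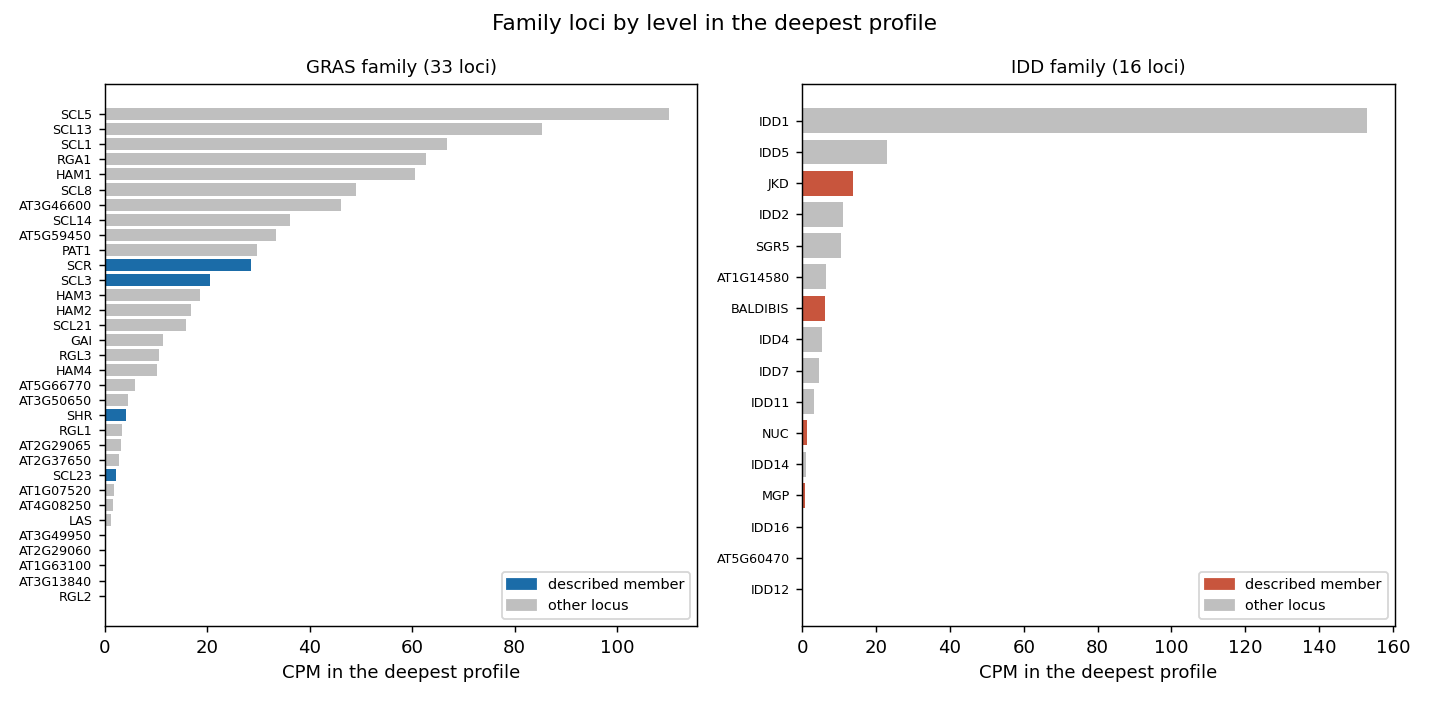
CPM in the deepest profile of 33 GRAS loci (left) and 16 IDD loci (right). Colored bars are the regulators described here and gray bars the other loci of the family. SCR ranks 11 of 33 and JKD ranks 3 of 16.

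Within the wider families, 28 of 33 GRAS loci and 13 of 16 IDD loci were above 0 in the deepest profile. Of all loci 51.3% were. The median was 10.5 CPM over all GRAS loci and 4.91 CPM over all IDD loci, and it was 0.673 CPM over all loci of the table. Of the 4 GRAS regulators SCR ranked 11, SCL3 12, SHR 21 and SCL23 25 by CPM. The highest GRAS loci were SCL5 (AT1G50600) at 110 CPM, SCL13 (AT4G17230) at 85.3 CPM and SCL1 (AT1G21450) at 66.7 CPM, all of the PAT1 branch of the family. Per kb of coding length SCR also ranked 11 and SHR 21.

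In the IDD family IDD1 (AT5G66730), known as ENHYDROUS in the seed, stood apart with 1136 counts or 153 CPM (144 to 162), and it was above 0 in all 39 profiles. IDD5 (AT2G02070), the BIRD gene RAVEN, had 22.9 CPM (19.6 to 26.6), above the interval of JKD. IDD2 (AT3G50700), a partner of DELLA proteins, had 11.0 CPM (8.78 to 13.7), which overlapped the interval of JKD. JKD ranked 3, BALDIBIS 7, NUC 11 and MGP 13 of the 16 loci by CPM, and IDD12, AT5G60470 and IDD16 were listed at 0. Per kb of coding length JKD also ranked 3.

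The partners and targets of SHR and SCR were mixed. MYB36 (AT5G57620), a regulator of endodermal differentiation that SCR activates, had 966 counts or 130 CPM (122 to 138) and was above 0 in all 39 profiles, with a count 4.56 times that of SCR (3.92 to 5.31). WOX5 (AT3G11260), the homeobox gene whose promoter drove the reporter, had 10.6 CPM (8.42 to 13.2), and SCR had 2.68 times as many counts (2.06 to 3.52). Per kb of coding length this order turned, with 14.5 CPM for SCR and 19.4 for WOX5 and a ratio of 0.751 (0.577 to 0.985), since WOX5 has a short coding sequence of 0.549 kb. CEL-Seq tags 3′ ends, so counts need not grow with coding length and plain CPM is the closer scale. The turn per kb therefore does not place WOX5 above SCR. MED31 (AT5G19910), a Mediator subunit that binds SCR, had 13.7 CPM. RBR1 (AT3G12280), the retinoblastoma-related protein that binds SCR and restrains division, had 3.77 CPM (2.50 to 5.45), and PHB (AT2G34710), a homeodomain gene that SHR and SCR hold down through small RNAs, had 2.96 CPM (1.86 to 4.48). CYCD6;1 (AT4G03270), the D-type cyclin that SHR and SCR activate for the formative division of the ground tissue, was listed at 0 in every profile, as was SCZ (AT1G46264), a heat-shock-type factor of ground tissue and QC identity. In all, 5 of these 7 genes were above 0 in the deepest profile, against 51.3% of all loci.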

How the data were processed

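The authors sorted cells and made CEL-Seq libraries, and deposited log2 values of read counts normalized to library depth, plus 1. The labels name Bowtie2 and TAIR10. Counting over exons, with reads of several locations counted in part and thinly covered genes dropped, is stated for the hand-picked cells of the study. The counter and filters of the CEL-Seq table are not given in the sources used here. Columns were matched to 39 of 40 samples by barcode, and 1 sample was not analysed here.

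Whole counts were recovered as multiples of the step between the lowest values of a profile, within 0.000845 of a step. On 32771 simulated rows 100% of values were recovered. CPM used the *Arabidopsis* loci only. Detection was a value above 0. Expected numbers of profiles were hypergeometric. Coding lengths, positions and sequences came from RefSeq TAIR10.1, and 26712 of the 32678 loci had a coding length. Python 3.11.15, numpy 2.4.6, pandas 2.3.3, scipy 1.17.1 and biopython 1.88 were used.

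The 9 regulators and all gene lists were chosen with earlier results of these data known. The text names all 9 regulators, the SIEL neighbour, the listed partners, the QC markers, the 3 highest other loci of each family, and the 3 loci most like SCR, the regulator of highest count. Family loci at 0 were named after their values were seen. Alternatives covered the detection limit, the scaling, the depth, the length and the number of segments.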

Additional observations from a re-analysis of the deposited data

Results flagged for a closer look

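ERCC spike-in RNAs, synthetic transcripts added to a library, fell outside every comparison of the regulators and held 4.97% of all counts in the deepest profile, in 70 of 91 rows. There was no control sample to set this against.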

How the results depend on the processing

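No paired analysis was possible because all samples belong to 1 group. A limit of at least 10 CPM left 3 of the 9 regulators and 18 of 33 GRAS loci. It left 5 of 16 IDD loci and 3 of 7 partners and targets, against 27.8% of all loci. The setting removes low genes by construction. The ratio of SCR to SHR was 4.54 at the median depth, outside the interval of its main value, and the cause was not tested. The other 16 alternatives to these summaries stayed within 1.5 times, or within the interval of the ratio. Of 27 alternatives to the level of a single regulator 23 stayed within its counting interval and 4 left it, namely SHR at 6.20, JKD at 11.0 and MGP at 0 CPM in the median-depth profile, and SCR at 33.1 CPM without the 4 loci of at least 10000 CPM, which held 13.9% of the total. Of 18 alternatives to the number of profiles above 0, 9 moved it by more than 1.5 times. With 2 segments in place of 4 the intervals overlapped for 8 of 8 regulators that gained counts in both, and they failed to overlap for 0.577% of 9874 loci of like counts. Depth limits NUC and MGP most, with 9 and 5 counts.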
